A study of Mus musculus with 19 samples.

Results

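Hearts of mice without a working clock in their cardiomyocytes were compared with wild-type hearts on a normal diet, at 1 point of the active phase. The comparison used 10 of the 19 hearts of the study, which were all hearts labelled as normal diet: 5 from transgenic mice named CCM and 5 from wild-type (WT) mice. All animals were of strain FVB/N and were sampled after 16 weeks of the diet at ZT 18, the hour counted from lights on. With 1 hour sampled, a change in the mean level of a gene cannot be told apart from a change in its daily rhythm. The other 9 hearts, 5 CCM and 4 WT, came from a high fat diet and served here for the steps shared by all arrays (normalization, choice of probes, estimate of spread), for the runs that left out 1 heart, and for comparisons with that diet. RNA of the heart was read on a bead array, 1 per animal, and the replicate spread is thus between animals, with array error included. The labels name the tissue as heart only. Neither the age of the animals at the start nor the number of transgenic founder lines was given in the sources used here.

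The circadian clock of a mammalian cell is a loop in which the partners CLOCK and BMAL1 bind E-box sequences and switch on the Per, Cry and Rev-erb genes, whose products then hold CLOCK and BMAL1 or the Arntl gene (which encodes BMAL1) back. The same pair drives output regulators such as the PAR bZIP factors DBP, TEF and HLF, which bind D-box sequences. In the heart this loop is known for daily rhythms of fuel use, ion channels and growth. As background, a CCM mouse carries a dominant-negative CLOCK driven by the alpha myosin heavy chain promoter, which is active in cardiomyocytes and not in the other cells of the heart. The other cells of the heart do not carry the transgene product, and an array of heart RNA reads all cells together.

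The targeted gene followed the labels in every heart. The probe that stands for Clock, the brightest for the gene over all arrays, read 14.96, 15.20, 15.11, 15.15 and 15.48 in the CCM hearts and 8.28, 8.40, 7.91, 6.16 and 7.80 in the WT hearts, listed here and below for hearts 1 to 5 of each group, in log2 units of background-corrected, quantile-normalized intensity. Each CCM heart lay far above every WT heart, and the mean difference was 7.47 (SE 0.36). A further Clock probe, brighter in WT than the first (mean 10.68 against 7.71), differed by 0.47 in the same direction. RNA of the transgene and of the mouse's own Clock gene were not told apart. Arrays were alike in quality: mean signal ran from 419 to 567, and 17378 to 18731 of 46643 probes were detected per array. Correlations between arrays were 0.969 to 0.994 within and 0.971 to 0.992 between the groups, and WT heart 1 had the lowest mean signal. The 10 cardiomyocyte markers were all detected and summed to 319000 to 328000 intensity units in CCM and 325000 to 336000 in WT, and none of them was called. Quantile normalization makes the brightest values alike between arrays, which limits what this sum can show about cardiomyocyte content.

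Clock genes and outputs are shown first, with the stretches of DNA in which the known motifs lie. Of the called clock genes and outputs, Ciart, Tef and Per3 fell and hold an E-box (CACGTG) or a D-box (TTATGTAA or TTACGTAA) in the 250 bases before their transcription start, as RefSeq lists them on build GRCm38.p6. The motif is in capitals, each sequence is written 5′ to 3′ in the direction of the gene, and the positions are chr3:95882229-95882478 (minus strand) for Ciart, chr15:81802423-81802672 (plus strand) for Tef and chr4:151044666-151044915 (minus strand) for Per3.
Ciart: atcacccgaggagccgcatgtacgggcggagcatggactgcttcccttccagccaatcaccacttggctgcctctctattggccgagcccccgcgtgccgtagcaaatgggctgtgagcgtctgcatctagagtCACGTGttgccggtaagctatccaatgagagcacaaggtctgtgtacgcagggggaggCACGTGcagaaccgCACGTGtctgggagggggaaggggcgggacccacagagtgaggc
Tef: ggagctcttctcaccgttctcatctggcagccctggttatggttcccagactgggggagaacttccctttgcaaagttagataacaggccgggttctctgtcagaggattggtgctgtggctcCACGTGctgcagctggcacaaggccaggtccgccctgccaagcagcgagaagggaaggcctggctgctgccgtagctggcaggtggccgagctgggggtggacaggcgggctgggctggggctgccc
Per3: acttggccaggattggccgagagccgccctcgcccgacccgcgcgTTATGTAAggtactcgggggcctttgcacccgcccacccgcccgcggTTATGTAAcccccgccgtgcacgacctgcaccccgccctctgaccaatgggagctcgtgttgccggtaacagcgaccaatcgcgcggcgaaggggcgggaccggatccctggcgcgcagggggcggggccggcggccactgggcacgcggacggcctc
The Ciart window holds 3 E-boxes, which begin 116, 58 and 44 bases before the start. The Tef window holds 1 E-box, 127 bases before the start, and the other RefSeq start of Tef has one as well. In the Per3 window lie 2 D-boxes, at 205 and 158 bases. A promoter was listed for 9150 of the 14762 genes tested, and an E-box on either strand lay in the window of 9.63% of them, against 13.8% of the 116 genes that fell and 7.89% of the 76 that rose. For the D-box the shares were 0.852% of all genes, 4 of the 116 genes that fell (3.45%) and 0 of the 76 that rose. The windows of Dbp, Nampt, Cry2, Arntl and Clock, called as well, hold neither motif. A match, or none, describes the letters in this window only.

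Ciart, whose product represses the CLOCK and BMAL1 pair, read 5.01, 5.15, 4.99, 4.94 and 5.11 in the CCM hearts and 7.05, 6.15, 6.39, 6.60 and 6.47 in the WT hearts. It was not well above background on any CCM array and was detected on all 5 WT arrays, which makes it at least 2.09-fold lower in CCM (adjusted p = 4.9e-07). Tef read 10.52, 10.78, 10.67, 10.66 and 10.92 in the CCM hearts and 12.41, 11.87, 12.16, 12.32 and 11.99 in the WT hearts, with no overlap between the groups, and was 2.71-fold lower in CCM (log2 difference -1.44, SE 0.11, adjusted p = 1.54e-07). Per3, a member of the Period family, read 7.36, 7.90, 7.94, 7.21 and 7.76 in the CCM hearts and 8.86, 8.15, 8.45, 8.47 and 8.21 in the WT hearts. The groups lay close but apart, and Per3 was 1.74-fold lower in CCM (log2 difference -0.80, SE 0.16, adjusted p = 0.01). Dbp read 8.50, 8.93, 9.04, 8.62 and 9.06 in the CCM hearts and 11.30, 10.41, 10.75, 10.64 and 10.99 in the WT hearts, the groups far apart, and was 3.97-fold lower in CCM (log2 difference -1.99, SE 0.15, adjusted p = 8.9e-08). Nampt, the rate-limiting enzyme of NAD salvage, was 2.47-fold lower in CCM (log2 difference -1.30, SE 0.18, adjusted p = 0.000159). Arntl moved the other way, at 9.44, 9.19, 9.67, 9.69 and 9.50 in CCM and 7.84, 8.71, 8.14, 8.70 and 8.14 in WT, and was 2.29-fold higher in CCM (log2 difference 1.19, SE 0.16, adjusted p = 0.000116). Of the 20 measured core clock genes 3 fell and 2 rose, Arntl and Clock itself, the gene of the transgene. Of 7 measured PAR bZIP and output factors 0 rose and 3 fell. The share of all genes called was 1.91%. The medians of these lists were -0.16 and -0.67, against 0.0084 for all genes. Cry2 was called at -0.78 (SE 0.19, adjusted p = 0.0405), but CCM heart 5 lay within the WT range and CCM heart 4 just below it, and the call was lost when any of 11 of the 19 hearts was left out, with an adjusted p of up to 0.12. The call on Per3 was lost in a fit to the 10 normal-diet hearts alone (adjusted p = 0.0565).

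Across the array, 282 of 14762 genes passed an adjusted p of 0.05 (1.91%), of which 109 rose (0.738%) and 173 fell (1.17%). These shares stand beside every count of list members given below. The lists were chosen with earlier results of these data known, so such counts describe the lists and do not test them. Decreases also made up most of the large changes: of 71 called genes that differed at least 2-fold, 53 fell and 18 rose. The groups did not overlap in 252 of the 282, and over all genes tested they did not overlap in 3.04%, with CCM higher in 1.46% and lower in 1.59%. Of the called genes, 243 were detected on all 10 arrays. The plot of difference against level shows calls at every level of signal.

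**Figure D1:**
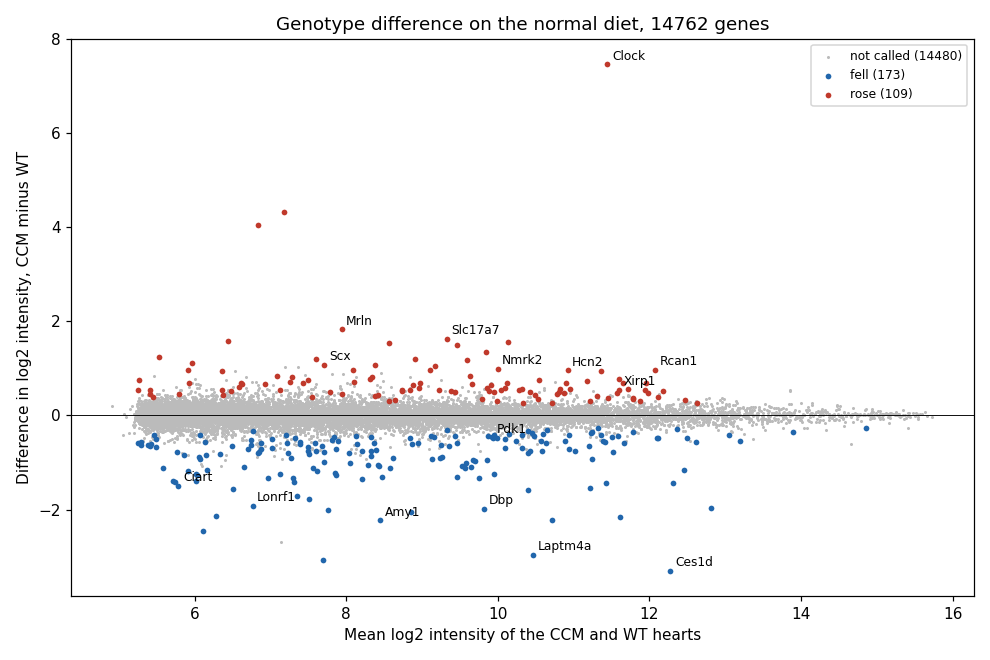
Difference in log2 intensity between CCM and WT hearts (5 of each, normal diet) against the mean log2 intensity, 1 point per gene, with 109 genes that rose in red, 173 that fell in blue and the others in grey. Clock stands alone at 7.47, and the 2 red points near 4 are probes whose array names are not official mouse genes. Among the other genes the fallen ones reach further from 0, to -3.30 for Ces1d, than the risen ones, to 1.84 for Mrln.

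Among the deepest decreases were a carboxylesterase, a cytochrome P450, a pair of amylases and a lysosomal membrane protein. Ces1d encodes a carboxylesterase that splits triglyceride and other esters. It read 10.38, 10.61, 10.55, 11.0 and 10.61 in the CCM hearts and 13.99, 13.92, 13.82, 14.22 and 13.69 in the WT hearts, and was 9.84-fold lower in CCM (log2 difference -3.30, SE 0.14, adjusted p = 6.94e-12). Cyp2b10, a cytochrome P450 of xenobiotic metabolism, read 6.10, 5.91, 5.92, 6.11 and 6.72 in the CCM hearts and 10.16, 9.01, 8.83, 8.68 and 9.46 in the WT hearts. Every CCM heart was low and every WT heart well above them, and Cyp2b10 was 8.43-fold lower in CCM (log2 difference -3.07, SE 0.29, adjusted p = 1.89e-06). It was the only call among 30 measured genes of xenobiotic and aldehyde metabolism, whose median was -0.059. Of 6 liver markers, Alb, Fgb and Apoh were undetected on all 10 arrays, and the other 3 summed to 357 to 430 in CCM and 311 to 404 in WT with none called. The starch-splitting amylases Amy2a5 and Amy1, which are neighbours in gene order and close in sequence, so that their probes may share transcripts, were 4.65-fold lower in CCM (log2 difference -2.22, SE 0.12, adjusted p = 5.93e-10) and 4.69-fold lower in CCM (log2 difference -2.23, SE 0.15, adjusted p = 1.11e-08). Of 10 markers of exocrine pancreas, 7 were undetected on all 10 arrays, among them Prss2, Cpa1 and Pnlip, and Amy2a5 was the 1 marker called. The part of liver or pancreas tissue in Cyp2b10 and the amylases was not tested. Laptm4a, a lysosomal membrane protein, read 8.62, 8.96, 8.70, 9.30 and 9.33 in CCM against 12.0, 11.82, 11.99, 12.0 and 11.92 in WT, and was 7.8-fold lower in CCM (log2 difference -2.96, SE 0.13, adjusted p = 2.7e-11). Gcat, an enzyme of threonine breakdown, read 9.49, 9.21, 9.41, 9.57 and 9.22 in the CCM hearts and 10.31, 10.55, 10.27, 10.35 and 10.18 in the WT hearts, a smaller difference with little spread, 1.93-fold lower in CCM (log2 difference -0.95, SE 0.09, adjusted p = 1.17e-06). Ptgds, which makes prostaglandin D2, was 3.94-fold lower in CCM (log2 difference -1.98, SE 0.26, adjusted p = 0.000106), and the kallikrein Klk1b26, one of a family of near-identical genes, was 4.01-fold lower in CCM (log2 difference -2.0, SE 0.39, adjusted p = 0.00628). Glutathione transferases Gsta1 and Gsta2, a further pair of like neighbours, were called at -0.81 and -0.76 (adjusted p = 0.0273 and 0.0398), with groups that overlapped. Their calls were lost when any of 7 and of 8 hearts were left out, with adjusted p of up to 0.0829 and 0.116.

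Lipid genes changed singly and in both directions. Dgat2, which adds the last acyl chain of triglyceride, read 11.81, 11.94, 11.67, 12.03 and 11.93 in the CCM hearts and 13.26, 13.01, 12.92, 13.10 and 12.86 in the WT hearts, and was 2.23-fold lower in CCM (log2 difference -1.16, SE 0.10, adjusted p = 3.09e-07). In the same list of 12 measured synthesis genes Agpat3, an acyltransferase that makes phosphatidic acid, rose: 10.72, 10.82, 10.57, 10.70 and 10.73 in CCM against 10.33, 10.38, 10.22, 10.18 and 10.23 in WT. It was 1.35-fold higher in CCM (log2 difference 0.44, SE 0.07, adjusted p = 0.00159). Mid1ip1, a partner of acetyl-CoA carboxylase, was 2.92-fold lower in CCM (log2 difference -1.55, SE 0.18, adjusted p = 3.08e-05). Its relative Thrsp was called at -1.18 (SE 0.27, adjusted p = 0.0212), with CCM hearts 4 and 5 at 7.53 and 7.46 beside a lowest WT heart at 7.53. Pmvk, of the mevalonate pathway, was 1.57-fold lower in CCM (log2 difference -0.65, SE 0.11, adjusted p = 0.00131). Pnpla3, a lipid hydrolase, rose to 8.74, 8.68, 8.49, 9.01 and 8.80 from 8.07, 7.89, 8.0, 8.03 and 7.63, and was 1.76-fold higher in CCM (log2 difference 0.82, SE 0.18, adjusted p = 0.0163). None of 14 genes of fatty acid uptake and none of 23 genes of fatty acid oxidation was called, with list medians of -0.0015 and -0.040. The call on Thrsp was lost without any of 5 hearts (adjusted p up to 0.0715) and that on Pnpla3 without CCM heart 4 or WT heart 5 (up to 0.055). White adipocyte markers summed to 760 to 3920 in CCM and 542 to 942 in WT, with 0 of 5 called, a median of 0.69, and Retn, Lep and Plin1 undetected on all 10 arrays. Their part in the lipid genes was not tested. In RNA of mixed heart cells, fewer cells of a type and less RNA per cell cannot be told apart.

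Among genes of fuel use single enzymes, carriers and regulators changed. Bdh1, the mitochondrial enzyme that starts the breakdown of the ketone body beta-hydroxybutyrate, read 10.97, 10.66, 10.07, 10.43 and 10.52 in the CCM hearts and 12.97, 12.52, 12.50, 12.47 and 13.02 in the WT hearts. All CCM hearts were below all WT hearts by a wide margin, 4.5-fold lower in CCM (log2 difference -2.17, SE 0.20, adjusted p = 1.02e-06). Slc16a7, a carrier of ketone bodies and lactate, read 7.24, 7.57, 7.22, 7.44 and 7.32 against 7.90, 7.94, 7.92, 8.17 and 8.14, and was 1.58-fold lower in CCM (log2 difference -0.66, SE 0.11, adjusted p = 0.00134). Oxct1, the next enzyme of ketone use after Bdh1, gave -0.31 (SE 0.08, adjusted p = 0.0506), just short of the threshold. It passed the threshold in 9 of 14 other ways of processing or testing the data, not all of which are separate checks. Ppp1r3b, which brings protein phosphatase 1 to glycogen, read 9.11, 9.07, 8.94, 8.89 and 9.03 in the CCM hearts and 10.76, 10.02, 9.52, 10.35 and 9.98 in the WT hearts. It was 2.17-fold lower in CCM (log2 difference -1.12, SE 0.16, adjusted p = 0.000355), while Pygl, a glycogen phosphorylase of the liver type, was 1.38-fold higher in CCM (log2 difference 0.47, SE 0.10, adjusted p = 0.012). Pdk1, a kinase that switches off pyruvate dehydrogenase, was 1.38-fold lower in CCM (log2 difference -0.46, SE 0.10, adjusted p = 0.0112), and the cytosolic enzyme Idh1 gave -0.42 (SE 0.10, adjusted p = 0.03). Nmrk2, a nicotinamide riboside kinase of muscle, read 10.41, 10.36, 10.45, 10.94 and 10.29 in the CCM hearts and 9.69, 9.42, 9.25, 9.12 and 10.02 in the WT hearts. It was 1.99-fold higher in CCM (log2 difference 0.99, SE 0.20, adjusted p = 0.0109), opposite in direction to Nampt of the same NAD list. None of 18 genes of glycolysis and glucose uptake was called, and none of 18 of branched-chain amino acid breakdown. Of 52 respiratory chain genes 1 was called, which is 1.92% beside 1.91% of all genes: Uqcr10 of complex III at -0.27 (SE 0.07, adjusted p = 0.0427). Of 63 mitochondrial ribosomal protein genes, Mrpl22 was 1.68-fold lower in CCM (log2 difference -0.75, SE 0.10, adjusted p = 0.000116) and Mrps34 was 1.25-fold higher in CCM (log2 difference 0.33, SE 0.07, adjusted p = 0.0135). The calls on Idh1, Pdk1, Pygl, Uqcr10 and Mrps34 were lost when arrays were set to equal medians by a constant shift (adjusted p of 0.378, 0.36, 0.142, 0.974 and 0.0943) and in the fit to the 10 normal-diet hearts (0.0952, 0.0786, 0.0513, 0.211 and 0.123). Those on Idh1 and Uqcr10 were also lost without any of 5 and of 14 hearts (up to 0.0926 and 0.123), and 1 of 3 Nmrk2 probes differed by -0.23.

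**Figure D2:**
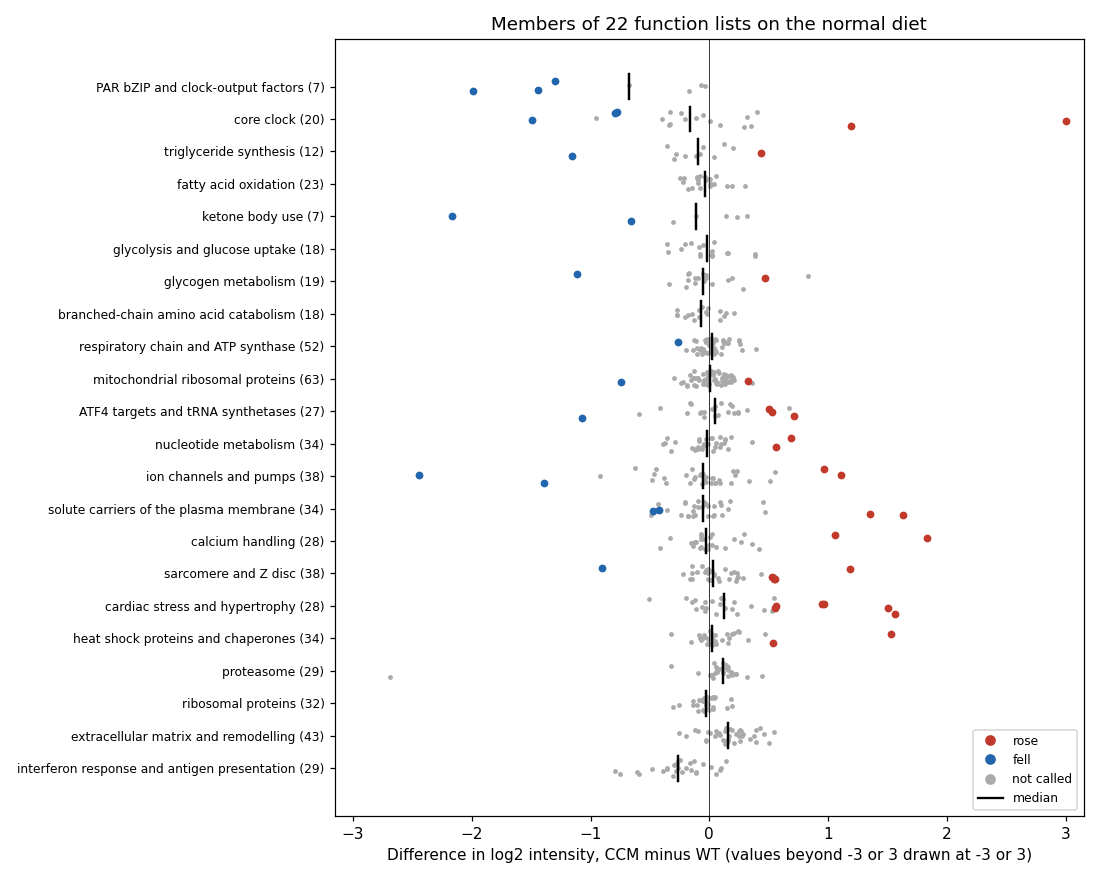
CCM minus WT difference in log2 intensity of each measured member of 22 function lists, with the number of measured members in brackets, genes that rose in red, genes that fell in blue and a black line at the list median. In most lists the members lie near 0 and the called ones stand apart singly; Clock (7.47) is drawn at 3.

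Single genes of amino acid, one-carbon and nucleotide metabolism changed, in both directions. In the list of 18 measured genes of amino acid metabolism outside branched-chain breakdown, Asns rose and Shmt1 fell, with a median of -0.056. Asns, which makes asparagine and is a target of the stress factor ATF4, read 7.63, 7.60, 7.74, 7.50 and 7.60 in the CCM hearts and 6.66, 6.95, 6.80, 6.91 and 7.21 in the WT hearts. The groups did not overlap and Asns was 1.64-fold higher in CCM (log2 difference 0.71, SE 0.14, adjusted p = 0.00941). Mthfd2, a mitochondrial enzyme of one-carbon metabolism, read 8.61, 8.99, 9.01, 8.60 and 9.38 in the CCM hearts and 7.95, 7.59, 7.69, 7.80 and 8.16 in the WT hearts, and was 2.11-fold higher in CCM (log2 difference 1.08, SE 0.18, adjusted p = 0.00134). Shmt1, the cytosolic enzyme that interconverts serine and glycine, was 1.48-fold lower in CCM (log2 difference -0.57, SE 0.11, adjusted p = 0.00455). Atf5, a transcription factor of the same stress pathway, read 10.25, 10.23, 10.01, 10.12 and 10.12 against 9.63, 9.68, 9.53, 9.49 and 9.76, and was 1.44-fold higher in CCM (log2 difference 0.53, SE 0.10, adjusted p = 0.00468). Trib3, a pseudokinase induced by ATF4, was called at 0.50 (SE 0.12, adjusted p = 0.0366). Sars, the seryl-tRNA synthetase, fell: 7.59, 7.73, 7.84, 8.32 and 8.0 in the CCM hearts and 8.97, 8.63, 9.02, 9.09 and 9.12 in the WT hearts. It was 2.1-fold lower in CCM (log2 difference -1.07, SE 0.13, adjusted p = 4.83e-05). Of 27 measured ATF4 targets and tRNA synthetases, 3 rose and 1 fell, with a median of 0.049. Among 34 genes of nucleotide metabolism 2 rose and 0 fell, with a median of -0.022. Uck2, a uridine and cytidine kinase, read 12.07, 11.81, 11.96, 12.29 and 11.88 in the CCM hearts and 11.36, 11.28, 11.41, 11.38 and 11.76 in the WT hearts, with WT heart 5 above the other WT hearts, and was 1.48-fold higher in CCM (log2 difference 0.56, SE 0.12, adjusted p = 0.0132). Nt5e, the surface enzyme that makes adenosine from AMP, was 1.61-fold higher in CCM (log2 difference 0.69, SE 0.13, adjusted p = 0.00453). Prps2, which makes the ribose phosphate of purines and pyrimidines and was in none of the lists, was 2.47-fold lower in CCM (log2 difference -1.31, SE 0.12, adjusted p = 1.31e-06). The call on Trib3 was lost without any of 6 hearts (adjusted p up to 0.0924), and those on Sars and Uck2 when the probes of a gene were averaged (0.0983 and 0.0949). A second Asns probe differed by 0.15 and a second Sars probe by 0.05.

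Among 38 measured ion channels and pumps 2 rose and 2 fell. Hcn2, a pacemaker channel, read 11.53, 11.54, 11.34, 11.15 and 11.44 in the CCM hearts and 10.60, 10.42, 10.28, 10.22 and 10.68 in the WT hearts. The lowest CCM heart was above the highest WT heart and Hcn2 was 1.95-fold higher in CCM (log2 difference 0.96, SE 0.12, adjusted p = 3.86e-05). Kcne1, the accessory subunit of the slow delayed rectifier potassium current, read 6.42, 6.35, 6.36, 6.65 and 6.81 in the CCM hearts and 5.25, 5.42, 5.37, 5.44 and 5.58 in the WT hearts. It was detected on all 5 CCM arrays and on 1 of the 5 WT arrays, and was 2.15-fold higher in CCM (log2 difference 1.11, SE 0.19, adjusted p = 0.002). With 4 WT values not above background the size of this difference is uncertain, and it was 0.575 without background correction. Ano4, of the anoctamin family, read 4.93, 4.79, 4.88, 4.89 and 4.93 in the CCM hearts and 7.41, 7.51, 7.46, 7.43 and 6.86 in the WT hearts, and was not well above background in any CCM heart. It was at least 3.64-fold lower in CCM (adjusted p = 4.38e-11). Kcnc1, a voltage-gated potassium channel, was also undetected in CCM and was at least 1.93-fold lower in CCM (adjusted p = 0.0014). Calhm5, of a family of calcium-modulated channels, was 2.29-fold higher in CCM (log2 difference 1.20, SE 0.20, adjusted p = 0.00156). The atrial markers, which varied widely, summed to 10300 to 44300 in CCM and 5080 to 60400 in WT with 0 of 6 called; their part in the channel genes was not tested.

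In a list of 34 measured solute carriers 2 rose and 2 fell. Slc17a7, a vesicular glutamate transporter, read 10.40, 10.12, 9.59, 10.37 and 10.21 in the CCM hearts and 8.81, 8.32, 8.58, 8.14 and 8.70 in the WT hearts, and was 3.09-fold higher in CCM (log2 difference 1.63, SE 0.22, adjusted p = 0.000134). Slc41a3, a magnesium transporter, read 10.43, 10.43, 10.36, 10.64 and 10.77 in the CCM hearts and 8.66, 9.29, 9.33, 9.64 and 8.95 in the WT hearts. All 5 CCM hearts were above all WT hearts for both carriers, and Slc41a3 was 2.55-fold higher in CCM (log2 difference 1.35, SE 0.15, adjusted p = 1.43e-05). The creatine transporter Slc6a8 read 12.98, 12.84, 12.83, 12.80 and 12.76 in the CCM hearts and 13.36, 13.18, 13.16, 13.30 and 13.34 in the WT hearts. Its fall was small and even, 1.34-fold lower in CCM (log2 difference -0.43, SE 0.08, adjusted p = 0.00404). Slc5a6, which imports biotin and pantothenate, was 1.39-fold lower in CCM (log2 difference -0.48, SE 0.08, adjusted p = 0.000911). Among 30 measured receptors the only call was P2ry1, a receptor for ADP, which read 10.63, 10.62, 10.55, 10.58 and 10.55 in the CCM hearts and 11.50, 11.06, 11.17, 11.58 and 11.16 in the WT hearts, and was 1.63-fold lower in CCM (log2 difference -0.71, SE 0.12, adjusted p = 0.00264). The calls on Slc6a8 and Slc5a6 were lost when arrays were set to equal medians by a constant shift (adjusted p = 0.212 and 0.189). Slc25a37, a mitochondrial iron importer most abundant in erythroid cells, was called at -0.74 (SE 0.16, adjusted p = 0.0141), and its call was lost without CCM heart 1 (adjusted p = 0.0504). Erythroid markers lay lower in CCM as well, at sums of 92200 to 128000 against 133000 to 148000, with all 7 measured markers below 0, a median of -0.61 and none called. Their part in Slc25a37 was not tested.

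Of the contractile and calcium genes that changed, several are isoforms best known from skeletal muscle. Mrln encodes myoregulin, a small inhibitor of the sarcoplasmic reticulum calcium pump described in skeletal muscle. It read 9.05, 9.08, 9.11, 8.57 and 8.48 in the CCM hearts and 7.52, 7.20, 6.39, 7.16 and 6.83 in the WT hearts, and was 3.57-fold higher in CCM (log2 difference 1.84, SE 0.18, adjusted p = 1.92e-06), the largest increase among the official genes after Clock. Casq1, the skeletal calsequestrin that stores calcium in the reticulum, read 9.08, 9.57, 9.49, 9.83 and 10.52 in the CCM hearts and 8.75, 8.31, 8.59, 8.67 and 8.87 in the WT hearts. CCM heart 5 was highest and CCM heart 1 closest to WT, and Casq1 was 2.08-fold higher in CCM (log2 difference 1.06, SE 0.20, adjusted p = 0.00508). These were the 2 calls among 28 calcium handling genes. Mybpc2, the fast skeletal myosin binding protein C, read 10.49, 10.09, 10.60, 9.81 and 9.91 in the CCM hearts and 8.90, 8.99, 8.79, 9.12 and 9.19 in the WT hearts, and was 2.27-fold higher in CCM (log2 difference 1.18, SE 0.16, adjusted p = 0.000133). Tnnt1, the slow skeletal troponin T, fell, with 8.99, 8.59, 8.88, 8.91 and 8.60 against 9.56, 9.42, 9.85, 9.95 and 9.69. It was 1.87-fold lower in CCM (log2 difference -0.90, SE 0.11, adjusted p = 6.01e-05). The skeletal muscle markers Myh1, Myh2, Tnnt3, Myl1, Mylpf and Atp2a1 were undetected on all 10 arrays. The 6 that were measured, Ckm among them, summed to 9940 to 10600 in CCM and 9340 to 11100 in WT. Such a sum mostly follows its brightest members, and the part of skeletal muscle content in Mrln, Casq1, Mybpc2 and Tnnt1 was not tested. Among 38 sarcomere and Z disc genes 4 rose and 1 fell. Xirp1, an actin-binding protein of the intercalated disc, was 1.46-fold higher in CCM (log2 difference 0.55, SE 0.11, adjusted p = 0.0101). Ankrd23, which binds titin, and Synpo2l, a Z disc protein, were called at 0.53 (SE 0.12, adjusted p = 0.0212) and 0.55 (SE 0.14, adjusted p = 0.0446). Leaving out any of 5 hearts ended the call on Ankrd23 and any of 13 that on Synpo2l (adjusted p up to 0.0579 and 0.134), and Xirp1 was not called in the fit to the 10 normal-diet hearts (0.0775).

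Of 28 measured genes of cardiac stress and hypertrophy 6 rose and 0 fell, with a list median of 0.13, beside 0.738% of all genes that rose and 1.17% that fell. The list was chosen with earlier results of these data known, so this count is no test of it. Among its called members, Xirp1, Cdkn1a, Uck2 and Igf2bp2 also stand in other lists. Rcan1, which binds and inhibits calcineurin and is one of its targets, read 12.67, 12.32, 12.71, 12.61 and 12.47 in the CCM hearts and 11.41, 11.51, 11.39, 11.72 and 11.91 in the WT hearts. The groups were well apart and Rcan1 was 1.96-fold higher in CCM (log2 difference 0.97, SE 0.11, adjusted p = 2.11e-05). Cdkn1a, the cell cycle inhibitor p21, read 10.31, 9.87, 9.64, 11.12 and 10.13 in the CCM hearts and 9.40, 8.25, 8.45, 8.71 and 8.73 in the WT hearts. CCM heart 4 was highest, WT heart 1 was the highest of the WT hearts, and Cdkn1a was 2.84-fold higher in CCM (log2 difference 1.51, SE 0.27, adjusted p = 0.00273). It was the only call among 31 p53 targets and cell cycle genes. Tnfrsf12a, the receptor for the cytokine TWEAK, was 1.93-fold higher in CCM (log2 difference 0.95, SE 0.18, adjusted p = 0.00573). Igf2bp2, an mRNA-binding protein, read 11.27, 10.68, 10.94, 11.11 and 10.60 in the CCM hearts and 8.98, 9.34, 9.52, 9.28 and 9.67 in the WT hearts, with all 5 CCM hearts at least a full log2 unit above the WT mean. It was 2.95-fold higher in CCM (log2 difference 1.56, SE 0.14, adjusted p = 8.94e-07). Xirp1 and Uck2, given above, were the remaining members called. Scx, a transcription factor of tendon and valve cells that was in none of the lists, was 2.11-fold higher in CCM (log2 difference 1.07, SE 0.15, adjusted p = 0.000179). None of 43 extracellular matrix genes was called, although 36 of them lay above 0, with a median of 0.16.

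In the chaperone list 2 of 34 genes rose and 0 fell. Hspa1l, a member of the HSP70 family, read 9.59, 8.99, 9.26, 9.42 and 9.37 in the CCM hearts and 7.81, 7.71, 7.32, 7.83 and 8.29 in the WT hearts, and was 2.89-fold higher in CCM (log2 difference 1.53, SE 0.15, adjusted p = 1.91e-06). Hspb3, a small heat shock protein of muscle, was 1.45-fold higher in CCM (log2 difference 0.53, SE 0.08, adjusted p = 0.000355). The HSP70 genes are close in sequence, so some of the Hspa1l signal could come from relatives. Lonrf1, a RING finger protein, read 5.97, 5.87, 5.89, 5.68 and 5.62 in the CCM hearts and 8.04, 7.52, 7.76, 7.17 and 8.13 in the WT hearts. No CCM heart exceeded 5.97, and Lonrf1 was 3.79-fold lower in CCM (log2 difference -1.92, SE 0.15, adjusted p = 1.02e-07). Npc1, which exports cholesterol from lysosomes, was called at -0.55 (SE 0.10, adjusted p = 0.00573), and Atg13, of the kinase complex that starts autophagy, at 0.49 (SE 0.11, adjusted p = 0.0207). The call on Npc1 was lost when probes were averaged (adjusted p = 0.196), and that on Atg13 without any of 6 hearts (up to 0.0673). Signalling genes changed singly. Pik3r1, the regulatory subunit of PI3 kinase, was 1.51-fold lower in CCM (log2 difference -0.59, SE 0.10, adjusted p = 0.00209). Rras2, a Ras-like GTPase, was 1.48-fold higher in CCM (log2 difference 0.57, SE 0.08, adjusted p = 0.000124), and Mknk2, a kinase of the translation factor eIF4E, was called at -0.46 (SE 0.10, adjusted p = 0.0239), a call lost without any of 5 hearts (up to 0.0803). Ier3, an immediate early gene, read 11.01, 10.74, 10.43, 10.86 and 10.82 in the CCM hearts and 11.48, 11.83, 11.46, 11.65 and 12.08 in the WT hearts, and was 1.9-fold lower in CCM (log2 difference -0.93, SE 0.13, adjusted p = 0.000156). Of the adhesion genes Cntn5, a contactin of the immunoglobulin superfamily, was 2.99-fold higher in CCM (log2 difference 1.58, SE 0.10, adjusted p = 9.54e-09). This rests on 1 probe, as the further Cntn5 probes were detected on 0 of the 19 arrays. The junction protein Jam2 was called at -0.75 (SE 0.16, adjusted p = 0.0141), a call lost when WT heart 1 or 2 was left out (up to 0.0517). Further detected Jam2 probes differed by -0.84 (SE 0.07), -0.37 (SE 0.135) and -0.36 (SE 0.12). The cytokine Il15 was called at -0.55 (SE 0.14, adjusted p = 0.049) and lost without any of 14 hearts (up to 0.138).

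**Figure D3:**
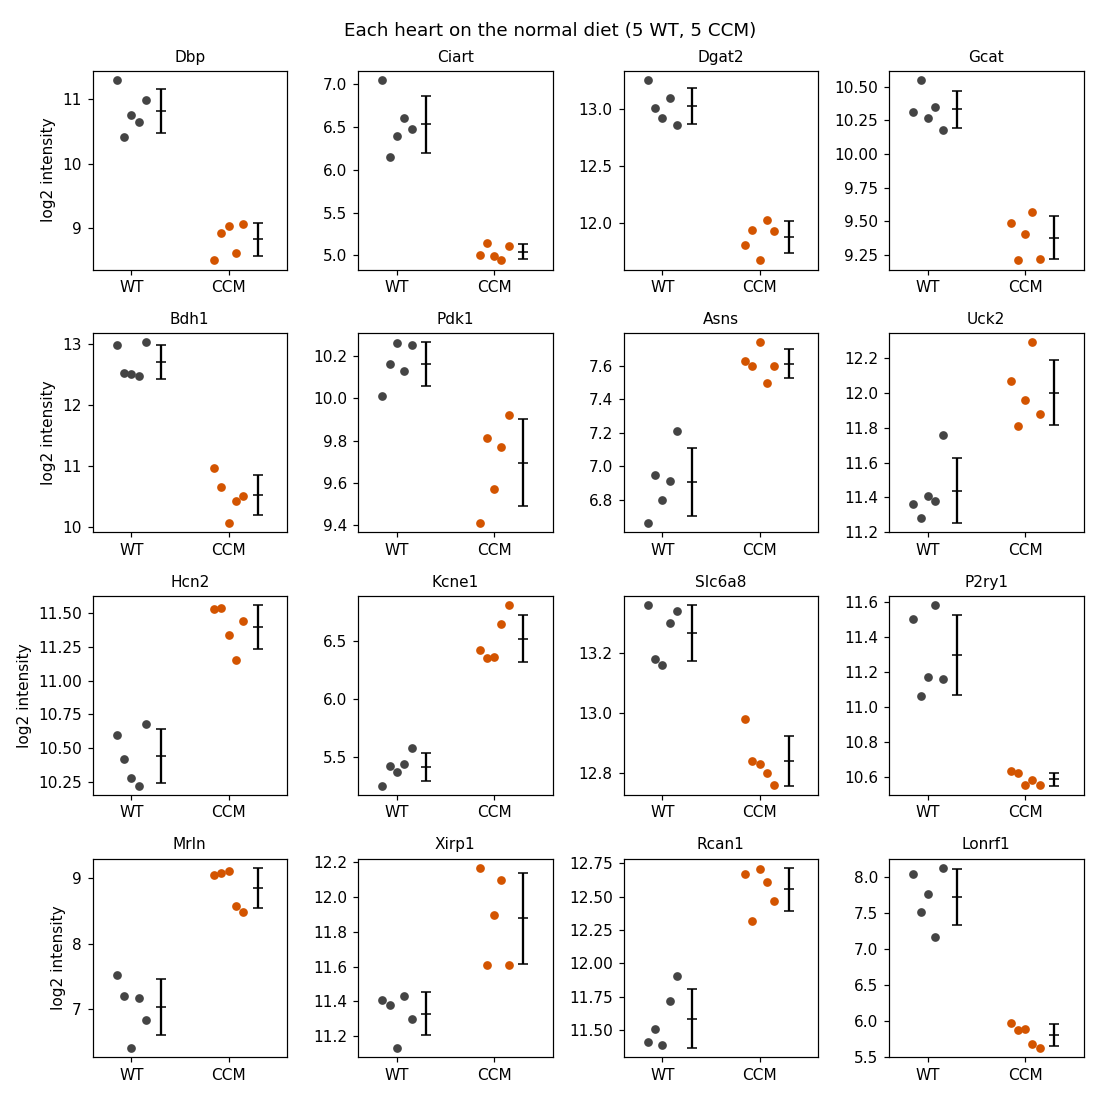
Log2 intensity of 16 genes in each of the 5 WT (grey) and 5 CCM (orange) hearts on the normal diet; the bar beside each group is its mean with the SD, and each panel has its own scale. In all 16 panels the groups do not overlap.

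Outside the lists, the 15 called genes with the smallest p among official symbols were all decreases, Gcat, Lonrf1 and Prps2 among them. Prxl2a, a peroxiredoxin-like protein, read 9.74, 9.53, 9.40, 9.83 and 9.57 in the CCM hearts and 11.22, 11.18, 11.18, 11.16 and 11.21 in the WT hearts. The WT hearts lay within a narrow band, and Prxl2a was 2.98-fold lower in CCM (log2 difference -1.58, SE 0.08, adjusted p = 5.18e-11). Rhobtb1, an atypical small GTPase, read 11.47, 11.48, 11.38, 12.22 and 11.41 in the CCM hearts and 13.34, 12.90, 13.15, 12.84 and 12.90 in the WT hearts, with CCM heart 4 above the other CCM hearts, and was 2.7-fold lower in CCM (log2 difference -1.43, SE 0.14, adjusted p = 3.44e-06). Rasd2, a Ras-like GTPase, was 2.68-fold lower in CCM (log2 difference -1.42, SE 0.16, adjusted p = 1.67e-05). Septin6, a filament-forming GTPase, was 2.53-fold lower in CCM (log2 difference -1.34, SE 0.11, adjusted p = 3.57e-07). Phc1, of Polycomb repressive complex 1, read 8.81, 9.06, 9.22, 9.18 and 9.10 against 10.23, 10.01, 10.13, 10.03 and 10, and was 2.01-fold lower in CCM (log2 difference -1.0, SE 0.09, adjusted p = 1.4e-06). Mettl3, the catalytic subunit of the enzyme that writes N6-methyladenosine on mRNA, read 8.0, 7.87, 7.99, 8.04 and 7.85 in the CCM hearts and 8.51, 8.62, 8.70, 8.83 and 8.89 in the WT hearts. The highest CCM heart was below the lowest WT heart, and Mettl3 was 1.7-fold lower in CCM (log2 difference -0.76, SE 0.08, adjusted p = 7.72e-06). Lmo2, a transcriptional cofactor of blood and endothelial cells, was 1.72-fold lower in CCM (log2 difference -0.78, SE 0.08, adjusted p = 9.55e-06), while the endothelial markers summed to 23700 to 28200 in CCM and 23100 to 27500 in WT. The erythroid markers, given above with Slc25a37, summed lower in every CCM heart than in any WT heart, and their part in Lmo2 was not tested. Sema6d, a semaphorin, and Palb2, a partner of BRCA2 in DNA repair, were undetected in CCM and were at least 1.98-fold lower in CCM (adjusted p = 9.37e-06) and at least 2.29-fold lower in CCM (adjusted p = 4.52e-06). The other Sema6d probe differed by -0.06. Cep128, a centriole protein, was 2.35-fold lower in CCM (log2 difference -1.23, SE 0.14, adjusted p = 1.25e-05), and Lypd6, a modulator of Wnt signalling detected on 4 of the 5 CCM arrays, was 2.24-fold lower in CCM (log2 difference -1.17, SE 0.12, adjusted p = 4.19e-06). A second Lypd6 probe, detected on 6 of the 10 normal-diet arrays, differed by -0.49 (SE 0.12). All of the genes in this paragraph stayed called when any single heart was left out.

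**Figure D4:**
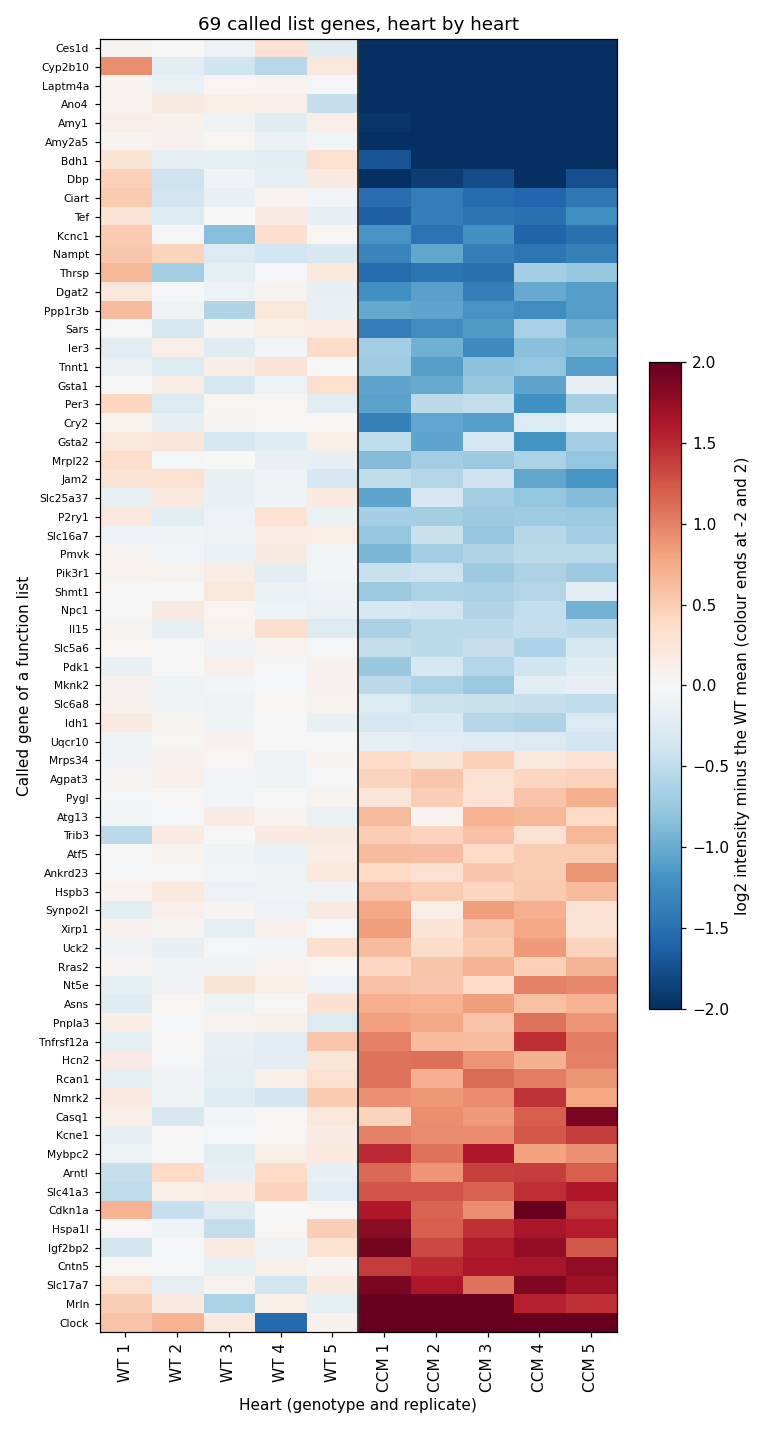
Log2 intensity minus the WT mean for 69 called genes of the function lists (rows) in 5 WT and 5 CCM hearts (columns), blue below and red above the WT mean, with colour ending at -2 and 2. The CCM columns hold the deep colours; paler CCM cells, such as those of Cry2 in hearts 4 and 5, Gsta1 in heart 5, Gsta2 in heart 3, and Synpo2l and Atg13 in heart 2, lay in or close to the WT range.

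Many lists held no call, which at 1.91% of all genes called does not set lists of this size apart. Besides the oxidation, glycolysis, branched-chain and matrix lists above, there was none among 26 phospholipid and sphingolipid enzymes, 32 ribosomal proteins, 38 translation factors, 29 proteasome genes, 37 ubiquitin ligases and deubiquitinases, 23 genes of the unfolded protein response, 25 DNA repair genes, 30 of TGF beta, BMP and Wnt signalling, 28 of iron, haem and copper handling and 37 vascular and growth factors. Lists can lean without calls. Of 29 proteasome genes 26 lay above 0, with a median of 0.11. Of 29 interferon and antigen presentation genes 5 lay above 0, with a median of -0.26, while macrophage markers, 0 of 8 called, had a median of -0.27 and summed to 2680 to 4800 in CCM and 3070 to 5210 in WT. The part of macrophage content in the interferon list was not tested. The fibroblast markers, all 8 above 0 with none called, had a median of 0.19 and sums of 26100 to 31600 against 24200 to 33400, and their part in the matrix list was not tested. Each of these medians kept its sign under 4 other background and scaling settings. Among these, no background correction and the authors' normalized values gave the same counts of calls and are not separate checks.

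Called genes were also looked at by their order along the chromosomes. Of 248 called genes placed in order on GRCm38.p6, 3.23% had a called gene as the next tested gene, against 2.14% of placed genes called. These were 8 pairs, among them the Amy and Gsta pairs of like sequence. In 7 pairs both genes moved the same way, and in the other Rit1, a Ras-like GTPase, differed by -0.57 and 5830417I10Rik by 0.36. The pairs included Kcne1 and Rcan1, which both rose, by 1.11 and 0.97. Spsb4 and Pxylp1 both rose as well: Spsb4, a substrate adaptor of ubiquitin ligases, was 1.95-fold higher in CCM (log2 difference 0.96, SE 0.15, adjusted p = 0.00106) and Pxylp1, a phosphatase of proteoglycan synthesis, was 1.57-fold higher in CCM (log2 difference 0.65, SE 0.12, adjusted p = 0.00289). Car11, a carbonic anhydrase-related gene beside Dbp, read 7.82, 7.59, 7.98, 7.94 and 7.86 in the CCM hearts and 8.38, 8.25, 8.50, 8.65 and 8.41 in the WT hearts. It fell with Dbp but less, 1.51-fold lower in CCM (log2 difference -0.60, SE 0.12, adjusted p = 0.0112), and its call was lost when arrays were set to equal medians by a constant shift (adjusted p = 0.164).

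Whether the genotype differences depended on diet was asked by testing the normal-diet difference against that on the high fat diet, which came from other animals. On the high fat diet 288 genes were called (1.95%), and 186 genes were called on both diets in the same direction, which is 65.96% of the normal-diet calls and 64.58% of the high-fat calls. Of the 282 normal-diet calls 276 had the same sign on the high fat diet. The difference between the diets passed the adjusted threshold for 0 genes in limma, with 400 genes (2.71%) at an unadjusted p under 0.05, and a trended and robust fit also called 0. Bdh1 differed by -2.17 on the normal and -1.50 on the high fat diet, an interaction of -0.67 (SE 0.29, unadjusted p = 0.0306). For Kcne1 the 2 differences were 1.11 and 0.61, with an interaction of 0.50 (SE 0.28, unadjusted p = 0.088). Hcn2, at 0.96 and 1.11, had an interaction of -0.15 (SE 0.17). The smallest unadjusted p was that of Gm12250, an interferon-inducible GTPase. It read 5.96, 5.96, 5.90, 5.82 and 6.06 in the CCM hearts and 6.55, 6.12, 6.17, 6.50 and 6.35 in the WT hearts on the normal diet and differed by -0.40 there and by 0.43 on the high fat diet, neither of them called, with an interaction of -0.82 (SE 0.16, unadjusted p = 7.14e-05, adjusted p = 0.9998).

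**Figure D5:**
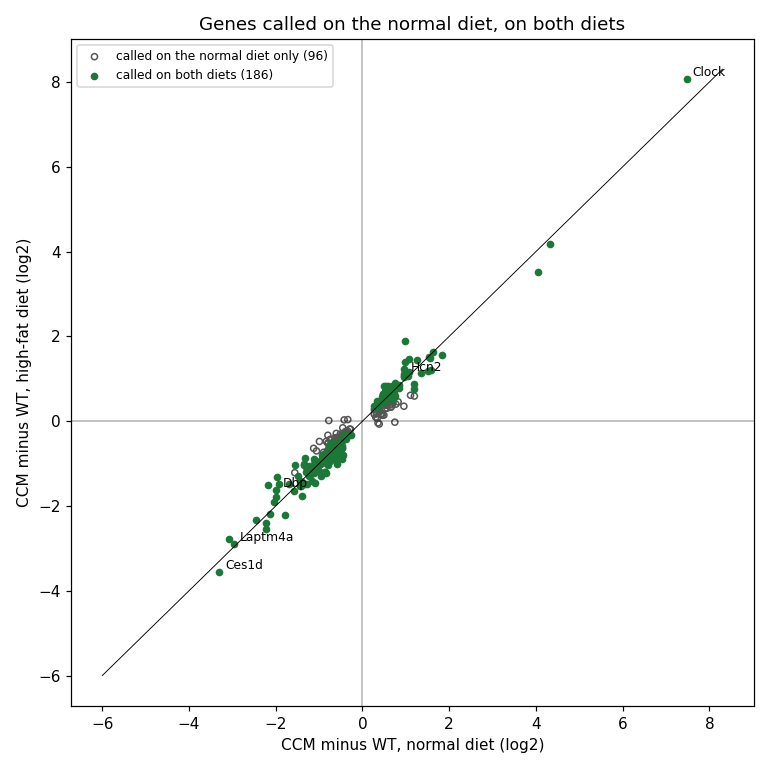
CCM minus WT difference in log2 intensity on the high fat diet (5 CCM, 4 WT) against that on the normal diet (5 CCM, 5 WT) for the 282 genes called on the normal diet; filled points are called on both diets and the line marks equal differences. Most points lie near the line, from -3.30 and -3.56 for Ces1d to 7.47 and 8.06 for Clock.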

How the data were processed

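The authors deposited average bead signals, which are intensity values not yet normalized, each with a detection p-value, and a further table of their normalized intensity values; per the submitters' processing notes the software was BeadStudio 3, and no genome build is given in the sources used here. Columns were matched to hearts by animal number. Signals were background-corrected from the deposited detection p-values with neqc (limma 3.58.1, R 4.3.3, offset 16), quantile-normalized and taken to log2. Probes detected (p-value under 0.05) on at least 4 of 19 arrays were kept (19840 of 46643), and the probe with the highest mean stood for its gene (14762 genes). For some genes, Cyp2b10, Igf2bp2, Calhm5, Cep128 and Palb2 among them, every further probe was detected on 0 of 19 arrays, so 1 probe carries the result. Linear models with empirical Bayes variances (limma) were fitted over the 4 groups, and p-values were adjusted by Benjamini-Hochberg over all genes, with a call at an adjusted p under 0.05. For a gene not detected in 1 group a bound on the fold was taken against each array's lowest detected signal.

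Named genes were Clock, the 20 largest called increases and decreases among genes that at least 1 group detected on all its arrays, called members of the function lists and up to 4 of each list with the smallest p, the 15 called genes of smallest p outside the lists, marker genes, called neighbours and the 4 smallest interaction p. Results for a few genes are not reported here. Psmc1, Kcnn3, Myl7, Myl4 and Nppa were chosen after their values were seen. The comparison and the lists were chosen with earlier results of these data known. The fit was tested on simulated data. Alternatives covered background, scaling, filters, probes, arrays used and the variance model. Array number limits precision. Symbols and gene order come from RefSeq (GRCm38.p6).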

Additional observations from a re-analysis of the deposited data

Results flagged for a closer look

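In 10 of 204 combinations of a named gene and a normal-diet group, 1 heart lay far from the other 4, judged by its gap to the nearest heart over the range of the group (Dixon's limit of 0.71). Chance alone flags about 5% of such groups, so the number is close to what chance gives. In CCM these were heart 2 for Nampt (8.091, next 7.799), heart 4 for Nmrk2 (10.94, next 10.45) and Rhobtb1 (12.22, next 11.48), and heart 5 for Cyp2b10 (6.719, next 6.113), all highest of their group. In WT, heart 1 was lowest for Lmo2 (11.75, next 11.93) and Trib3 (7.02, next 7.552), heart 2 for Cry2 (7.928, next 8.115), heart 4 for Clock (6.161, next 7.8) and heart 5 for Ano4 (6.859, next 7.408), while heart 5 was highest for Uck2 (11.76, next 11.41).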

How the results depend on the processing

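The 282 calls became 158 when arrays were set to equal medians by a constant shift in place of quantiles (157 of the 282 remained), 177 in the 10 normal-diet hearts alone, and 84 and 85 when only the hearts of animals with numbers below or above 20 were used (10 and 9 hearts). With 1 heart left out the count ran from 212 (without WT normal heart 1) to 277 (without CCM normal heart 5). Under the other 10 settings it was within 1.5 times, between 259 and 383. Of these, no background correction and the authors' normalized values gave the same counts (314 called, 128 higher and 186 lower) and are not separate checks. The share of calls that were increases was 38.7% in the main analysis, 26.2% and 28.2% for those smaller sets, and 34.5% to 44.9% elsewhere. The constant shift moved the median of all genes to 0.0445. The difference between diets gave 0 calls under every setting that holds both diets, including each left-out heart. Of the 102 genes followed through all settings, 99 were called, 82 of which stayed called without each heart in turn, and 0 reversed. Outside left-out hearts, 170 of 1428 gene results fell short of the threshold and 10 passed it anew. With a block for animals numbered below and above 20, 363 genes were called, 281 of the 282 among them. No paired analysis was possible because the labels number animals singly and no number is shared between groups. Dim probes near background hold bounds only, as for Ciart, Ano4, Kcnc1, Sema6d and Palb2, and the WT level of Kcne1 is uncertain, detected on 1 of 5 arrays.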

Other observations

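A few genes varied among hearts of 1 group far more than between genotypes. Psmc1, a proteasome ATPase, read 10.01, 9.04, 9.34 and 9.17 in WT normal-diet hearts 1 to 4 and 4.85 in heart 5, and 9.44 in CCM heart 2 against 4.81 to 5.03 in the other 4 CCM hearts. Both levels also occurred on the high fat diet in both genotypes. The genotype difference of -2.69 (SE 1.31) was not called (adjusted p = 0.545), and it is the far point of the proteasome list. Kcnn3, a calcium-activated potassium channel, followed the animal number: it read 8.28, 8.14 and 8.26 in CCM animals 4, 17 and 19 and 6.02 and 6.07 in animals 32 and 33, and 8.22 and 7.68 in WT animals 13 and 14 against 5.83, 6.14 and 5.65 in animals 22, 29 and 40. Its genotype difference was 0.65 (SE 0.62, adjusted p = 0.919). The atrial light chain Myl7 ran from 5.76 to 11.79 among the WT normal-diet hearts, lowest in heart 1 and highest in heart 3. Myl4 and Nppa, further atrial markers, were lowest and highest in the same hearts, at 9.27 and 14.55 and at 11.95 and 14.60. Differences in atrial content between the samples were not tested.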
